A study of Mus musculus with 9 samples.

Results

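The junctions described here are the annotated introns of mouse liver RNA that begin and end with GC and AG or with AT and AC, in place of the common GT and AG. They were chosen by measured values: an annotated junction of either class was kept when 10 or more uniquely mapped reads crossed it over the 9 libraries together. Of 289955 junctions with a read in any library, 152679 were annotated and 1029 met the rule, namely 906 with GC/AG sites and 123 with AT/AC sites. They are set against the 118909 annotated GT/AG junctions with as many reads. The rule used the sum over all libraries and no comparison of groups. At its edge, 13 GC/AG junctions had exactly 10 reads (Kansl1l, Hdac5, Ednrb and Kmt2d among them) and 7 had 9 reads (Zfp207, Homer1, Zgrf1 and Sdk1 among them), while no AT/AC junction had 10 reads and 1, in BC055324, had 9. In all, 338 of 1244 annotated GC/AG junctions and 28 of 151 annotated AT/AC junctions fell under the limit.

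The study compared liver RNA of C57BL/6 mice in 3 groups of 3 libraries. WT livers were wild type, YAP livers carried an inducible YAP transgene, and YAP_Lsd1ko livers carried the transgene together with a knockout of Lsd1, the histone demethylase gene Kdm1a. Every mouse, WT included, had been given AAV8-ApoE/ATT1-Cre, a viral vector for Cre whose label names ApoE and ATT1 elements. Doxycycline in the drinking water (30 mg/L for 14 days), which induced YAP expression, is likewise given for all 9 libraries, WT included. Neither the part of Kdm1a that is lost nor the promoter of the transgene is given in the labels. YAP co-activates transcription and is held in check by Hippo signalling. No group had lost Lsd1 alone. Separate animals are not named in the labels, so that p-values speak of the spread among these libraries, which may be technical.

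Introns are removed by spliceosomes that read short sequences at the 2 ends of the intron, the donor site at its start and the acceptor site at its end. In most introns the donor begins with GT and pairs with the U1 RNA. A donor with GC in that place carries a mismatch to U1 and is in most cases still spliced by the same major spliceosome. AT/AC introns are mostly of the U12 type, which a separate minor spliceosome removes. It holds the U11, U12, U4atac and U6atac RNAs and reads a long, nearly invariant donor and a branch point close to the acceptor. Introns of the U12 type are few, and many of them begin with GT, so they are counted here among GT/AG junctions.

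The sequences of both classes could be read only in part, because the intron bases were taken from GENCODE M21 transcripts (GRCm38) in which an exon of another transcript runs through the intron. Donors were readable in 36 of 123 AT/AC junctions, 208 of 906 GC/AG junctions and 19318 GT/AG junctions, and every readable donor began with the letters of its class. The AT/AC donors below are shown because they carry the long shared donor of the class. The lower case before the capitals is the last 10 bases of the exon, and the capitals are the first 8 bases of the intron.
Gbe1 donor: caccagggaaATATCCTTttct
Hsbp1 donor: atcggaaggaATATCCTTttga
Rapgef4 donor: ttgtggcccaATATCCTTttgt
Hnrnpl donor: ctatggtggaATATCCTTttct
Cul4a donor: cattcagagaATATCCTTtctt
E2f6 donor: aaaatgaaagATATCCTTccat
Slc9a7 donor: tactgctctaATATCCTTttta
Diaph2 donor: aaagatgatgATATCCTTtata

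The introns are those of Gbe1 (chr16:70529011-70561023), Hsbp1 (chr8:119345003-119345612), Rapgef4 (chr2:72208165-72223016), Hnrnpl (chr7:28814288-28815098), Cul4a (chr8:13115574-13121676), E2f6 (chr12:16820385-16822092), Slc9a7 (chrX:20162540-20164929) and Diaph2 (chrX:130179061-130259076), all between coding exons. The first 8 bases of the intron are the same in all 8, by the choice of these lines. Of the 36 readable AT/AC donors, 32 (88.9%) began with ATATCC and 28 (77.8%) with ATATCCTT. The matching start of a GT/AG intron, GTATCC, stood in 144 of 19318 readable GT/AG donors (0.745%), and GCATCC in 2 of 208 GC/AG donors. Those 2, in Lztr1 and Vps9d1, both began with GCATCCTT, the long donor apart from its first 2 letters. The 4 AT/AC donors without ATATCC were those of Smyd2, Rnf123 and 2 junctions that no GENCODE M21 intron matches, printed here because they depart from the shared donor.
Smyd2 donor: cactacaaatATAACCTTtctg
Rnf123 donor: gtcctttgcgATATCATTttgg
Chromosome 16 junction donor: cctaggaagcATGAAGAAcgga
Chromosome 8 junction donor: tgcttaactgATAAAAAAaaaa

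Acceptor ends were readable in 26 AT/AC junctions, 152 GC/AG junctions and 15559 GT/AG junctions. The last 30 bases of 5 AT/AC introns are shown for the short motif near their end, with that motif and the final AC in capitals.
Hnrnpl acceptor: ccacagttctgcttCCTTAAgtcttctcAC
Spc24 acceptor: tgtctgagccttggCCTTAAcccagtgcAC
Trappc2 acceptor: ctagaaagaccacgCCTTAActctctgcAC
E2f6 acceptor: catcttgtcagatCCTTGAccaggtctcAC
Smyd2 acceptor: atgctgcctgtttCCTTGAcgcttcagcAC

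CCTTAA or CCTTGA, searched on the transcribed strand in the last 40 bases of the intron, stood in 21 of 26 readable AT/AC acceptors (80.8%). The same letters stood in 3 of 152 GC/AG acceptors (1.97%) and in 2.10% of GT/AG acceptors. CCTTAA and CCTTGA differ at 1 place and belong to the known branch point motif of the minor spliceosome. Smyd2 thus has the acceptor motif without the common donor, as the lines above show. A match is a description of letters and was not tested for function.

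The GC/AG donors read differently. The donors below, with the first 6 bases of the intron in capitals, are from junctions that the later paragraphs name or that were among the most read.
Rack1 donor: atctcacaacGCAAGTagctgc
Hc donor: tttacgggctGCAAGTgttccc
Sf3b1 donor: taatggacagGCAAGTgactaa
Slco1a1 donor: atcactaaagGCAAACatgaaa
Aox1 donor: gtccaggaagGCAAGGatggcc
Sqstm1 donor: ctcccaccagGCATGTggtcac
Chpt1 donor: tatacaggagGCTAGTatacta
Ifi27 donor: ttctccagagGCAAGCtgtcag
Selenbp1 donor: gttgcacaagGCATGTcctctg
Selenbp2 donor: gttgcacaagGCATATcctccg

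As a class, GC/AG donors often held the other letters that pair with U1. GCAAGT began 104 of 208 readable GC/AG donors (50%), whereas GTAAGT began 12% of readable GT/AG donors. With G in the third position the order was the other way, as GCGAGT began 6.73% of GC/AG donors and GTGAGT 14.3% of GT/AG donors. AAG in intron positions 3 to 5, counted from 1 at the first base of the intron, stood in 69.7% of GC/AG donors and 25.7% of GT/AG donors, and G in position 5 in 93.3% and 77.1%. The exon side could be read in nearly all junctions. The exon before the intron ended in AG in 774 of 903 GC/AG junctions (85.7%), in 56.2% of GT/AG junctions and in 16 of 121 AT/AC junctions (13.2%). Rack1 and Hc, with exon ends AC and CT in the lines above, belong to the minority of GC/AG junctions. The next exon began with G in 53.3% of GC/AG, 49.2% of GT/AG and 19.0% of AT/AC junctions. Selenbp1 (chr3:94937394-94937954) and Selenbp2 (chr3:94697491-94698042) are near-identical neighbours, and their last 30 intron bases are the same.

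The position of the introns also set the classes apart. GENCODE M21 introns matched 900 GC/AG members and 114 AT/AC members. All 114 matched AT/AC introns lay between coding exons, and of the GC/AG introns 839 did, 45 lay in the 5' UTR, 9 in the 3' UTR and 7 in noncoding transcripts. Of the coding AT/AC introns, 28 (24.6%) lay between codons (phase 0), 41 (36.0%) after the first base of a codon (phase 1) and 45 (39.5%) after the second (phase 2). Of the GC/AG introns 53.9% were of phase 0, 25.9% of phase 1 and 20.3% of phase 2, close to the 46.9%, 30.6% and 22.4% of GT/AG introns. The median length was 1090 bases for GC/AG, 1194 for AT/AC and 1294 for GT/AG introns. Short introns under 100 bases were 68 of 906 in GC/AG and 1 of 123 in AT/AC, the 95-base intron of the ribosome biogenesis gene Nop2. The intron was the first of its transcript in 8.78% of GC/AG, 3.51% of AT/AC and 7.11% of GT/AG junctions. These shares are descriptions, and no difference between the classes was tested.

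In some gene families AT/AC introns stood at like places. By gene symbol, 12 families with 39 genes held 42 of the 123 AT/AC members, a grouping made after the list was seen. In 9 of the 12 families all AT/AC introns had 1 phase, and in 3 they had several. All 6 E2F genes in the list, E2f1 to E2f6, which encode transcription factors of the cell cycle, had their AT/AC intron as intron 3 or 4 and in phase 2. The diaphanous formins Diaph1, Diaph2 and Diaph3, which nucleate actin filaments, had 2 AT/AC introns each, the first in phase 2 and the second in phase 0. Among sodium-proton exchangers, Slc9a7 and Slc9a9 each had it as intron 7, in phase 0. The exchange factors for Ras and Rap (Rapgef1, Rapgef3, Rapgef4, Rapgef5, Rasgrp2 and Rasgrp3) all had it in phase 2, as introns numbered from 3 to 17. The palmitoyltransferase genes Zdhhc9, Zdhhc13, Zdhhc14 and Zdhhc18 had theirs as introns 5 to 10 in phases 1 and 2, and the importins and exportins Ipo5, Ipo9, Ipo11, Xpo4 and Xpo5 as introns 6 to 23 in phases 1 and 2. Pairs with the same intron number were Arpc5 and Arpc5l (intron 1 of 3), which encode forms of an Arp2/3 subunit, Morc3 and Morc4 (intron 4 of 16), and the CREB co-activators Crtc2 and Crtc3 (intron 3). Members of a family share ancestry and are not independent of each other.

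A single gene could hold both classes. Of 110 AT/AC host genes 13 (11.8%) also had a GC/AG member, while GC/AG hosts numbered 827 beside 12435 GT/AG hosts (6.65%). The 13 genes have 10 to 38 introns. A gene with more introns has more places for either class, and the 2 percentages are not matched for intron number. In Ipo5, an import receptor, intron 7 was GC/AG with 698 reads and intron 18 AT/AC with 461 reads. In Ipo11, intron 15 was GC/AG (217 reads) and intron 17 AT/AC (168 reads). Scn7a, a sodium channel gene, held 2 AT/AC introns and 1 GC/AG intron, with 26, 20 and 18 reads. Others were Ap2a1, Cep170b, Dcp2, Ercc5, Hip1, Morc4, Slc9a9, Thoc2 and Zc3h4.

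Before the comparisons, 2 features of the libraries bear on all of them. Kdm1a, the targeted gene, stood at 30.1, 38.3 and 31.3 CPM (counts per 1 M reads on annotated junctions after TMM scaling) in WT, at 36.7, 42.7 and 46.2 CPM in YAP and at 15.8, 35.4 and 25.3 CPM in YAP_Lsd1ko. The library labelled YAP_Lsd1ko replicate 2 was thus within the WT range and is named in that way below. Yap1 stood at 17.4 to 19.8 CPM in WT, 66.7 to 78.8 in YAP and 30.4 to 47.7 in YAP_Lsd1ko. In every group the counts of replicate 3 lay close to an about equal mixture of replicates 1 and 2 (best weight of replicate 1 0.48 in WT, 0.45 in YAP and 0.48 in YAP_Lsd1ko). Its mean squared standardized difference from that mixture was 1.32, 2.31 and 2.98, where 1 is counting noise, and any other library taken as a mixture of its group gave 4.51 to 13.2. Whether the third libraries are independent was not tested further, and counts of passing members are therefore given with and without replicate 3 of every group. Shares, neighbour ratios and donor percentages are given with replicate 3, and their exact permutation p-values count it as independent. If it is not, those p-values are too small. Uniquely mapped junction reads ranged from 6910297 to 9925154 per library and multi-mapped ones from 1307895 to 17283950. Hepatocyte markers dominated, with all 8 of the list read and 128993 to 229669 CPM in sum. Markers of other cells moved with the groups: the summed Kupffer cell and macrophage list stood at 401.9 to 786.4 CPM in WT, 1734 to 1912 in YAP and 395.7 to 1673 in YAP_Lsd1ko, and the biliary list at 109.2 to 174.5, 1021 to 1210 and 194.8 to 713.9 CPM, with every marker of both lists read. The biliary rise was that of Spp1, and without it the list stood at 65.0 to 76.7 CPM in WT, 63.3 to 71.4 CPM in YAP and 44.0 to 106.5 CPM in YAP_Lsd1ko. In whole liver, fewer cells of a type and less RNA per cell cannot be told apart.

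GC/AG members took 0.516% of the reads on annotated junctions in WT on average, and AT/AC members 0.0367%. A read that crosses several junctions counts at each of them. Over the 9 libraries GC/AG members had 390325 reads and AT/AC members 28496, with a median of 109 and 125 reads per junction, near the 116 of GT/AG junctions. Reads were uneven: the 5 most read members held 28.0% of GC/AG and 25.2% of AT/AC reads. In all 9 libraries 77.3% of GC/AG, 86.2% of AT/AC and 80.3% of GT/AG junctions were read. Uniquely mapped reads were 96.9% of all reads on AT/AC members and 77.4% on GC/AG members.

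The most read GC/AG junction was intron 2 of Eef1a1 (chr9:78480421-78480510), the gene of a translation elongation factor, with 49258 uniquely mapped and 41789 multi-mapped reads. Eef1a1 has many near-identical copies in the genome, so its value is uncertain, and it held 9.88 to 15.8% of the GC/AG reads of a library. Then came hepatocyte genes: complement C3 (21749 reads), the retinal dehydrogenase gene Aldh1a1 (15645), Cyp2c70 of bile acid synthesis (12385), Selenbp2 (10223) and 2 introns of Itih2, a plasma protein chain (8192 and 6239). Esd (7297), Rack1 (6901), the glucose transporter gene Slc2a2 (6722) and Selenbp1 (4218) were also among the most read. Selenbp1 and Selenbp2 had 13246 and 13632 multi-mapped reads, more than uniquely mapped ones, as did 15 GC/AG members in all and 0 AT/AC members. Of the junctions named here Selenbp1 rose in YAP against WT (log2 fold change 1.0, edgeR adjusted p = 0.00479), and the others did not pass in any comparison.

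The most read AT/AC junctions belonged to broadly expressed genes. They were Ddb1 (1771 reads), the adaptor of Cul4 ubiquitin ligases, Gbe1 (1551), the glycogen branching enzyme, Hsbp1 (1342), which binds heat shock factors, Spcs2 (1323) of the signal peptidase, Suds3 (1201) of the Sin3 deacetylase complex and Rapgef4 (1140). Phb2 (1050), D10Jhu81e (1013), the RNA-binding protein gene Hnrnpl (834), Cul4a (682), Kcmf1 (627) and the glycyl-tRNA synthetase gene Gars (551) followed. Of these 12, Rapgef4 passed a test between groups. Ddb1 stood at 21.9, 24.3 and 21.8 CPM in WT, 31.3, 25.2 and 29.6 CPM in YAP and 24.2, 21.9 and 21.8 CPM in YAP_Lsd1ko, with YAP above both other groups in every library (log2 fold change 0.34 against WT, SE 0.19, edgeR adjusted p = 0.274).

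The GC/AG share of annotated junction reads was 0.5208, 0.5094 and 0.5180% in the WT libraries, 0.5416, 0.5589 and 0.5474% in the YAP libraries and 0.5217, 0.5631 and 0.5402% in the YAP_Lsd1ko libraries. All YAP and YAP_Lsd1ko libraries lay above all WT libraries, and YAP and YAP_Lsd1ko overlapped. The log2 difference was 0.090 in YAP against WT, -0.021 in YAP_Lsd1ko against YAP and 0.069 in YAP_Lsd1ko against WT, with exact two-sided permutation p-values of 0.1, 0.6 and 0.1. With 3 against 3 libraries 0.1 is the smallest p possible. Without the 5 most read members the differences from WT were 0.001 and 0.005, and the groups overlapped. Without Eef1a1 alone, an alternative chosen after seeing the data, they were 0.028 and 0.030 (exact permutation p = 0.8 and 0.3).

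The AT/AC share was 0.03423, 0.03836 and 0.03757% in WT, then 0.04007, 0.04356 and 0.04154% in YAP, and 0.03834, 0.04098 and 0.03775% under YAP_Lsd1ko. Every YAP library was above every WT library, and YAP_Lsd1ko overlapped both. The log2 difference was 0.185 in YAP against WT (exact permutation p = 0.1), -0.097 in YAP_Lsd1ko against YAP (p = 0.2) and 0.089 in YAP_Lsd1ko against WT (p = 0.3), and without the 5 most read members 0.182, -0.115 and 0.067. These shares are not TMM scaled. The mean log2 TMM factor of YAP minus that of WT was 0.20, with -0.08 for YAP_Lsd1ko minus YAP and 0.12 for YAP_Lsd1ko minus WT. TMM scaling takes about that difference off the log2 fold change of every junction. After TMM scaling the median log2 fold change of tested AT/AC members was 0.012 in YAP against WT, beside 0.017 for all junctions. With multi-mapped reads added to both sides, the YAP against WT differences were 1.099 for GC/AG and 1.126 for AT/AC, where the multi-mapped totals were 3403801 to 17283950 in WT and 1307895 to 1322428 in YAP.

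**Figure D1:**
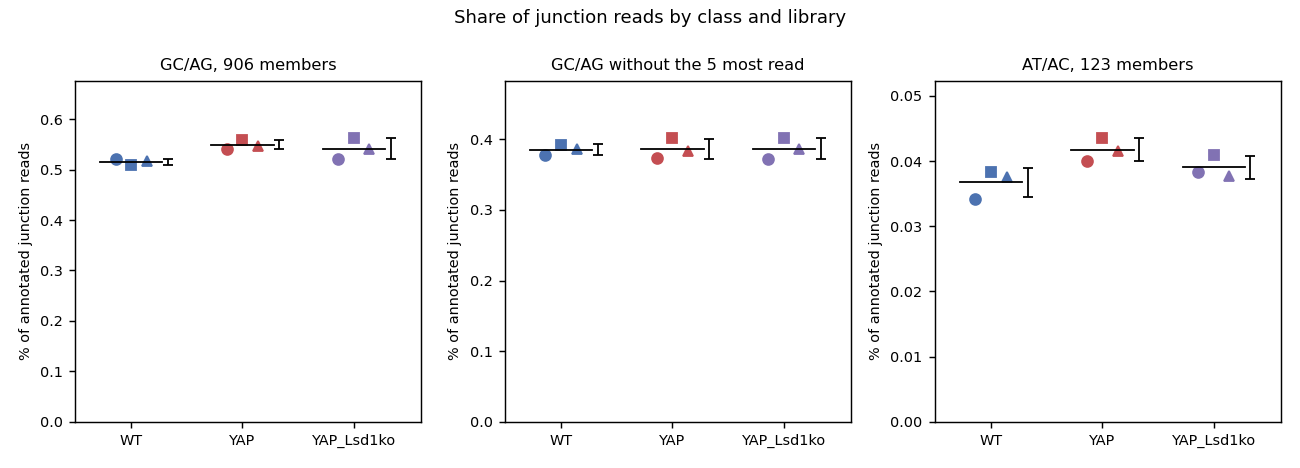
Percentage of annotated junction reads on GC/AG members, on GC/AG members without the 5 most read, and on AT/AC members; each point is a library (circle, square and triangle for replicates 1, 2 and 3), horizontal lines are group means and whiskers 1 SD, n = 3. The YAP libraries sit above the WT libraries in the left and right panels and overlap them in the middle panel.

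To measure the classes within their own genes, the reads of each member were set against the mean of the GT/AG introns before and after it in the same transcript. For GC/AG the ratio of the sums was 1.06, 1.03 and 1.06 in the WT libraries, 1.12, 1.09 and 1.12 in the YAP libraries and 1.07, 1.11 and 1.09 in the YAP_Lsd1ko libraries (890 members with a neighbour). For AT/AC it was 1.08, 1.08 and 1.11 in WT, then 1.10, 1.11 and 1.09 in YAP, and 1.10, 1.15 and 1.09 under YAP_Lsd1ko (114 members). GT/AG junctions measured in the same way gave 0.967 to 0.973. The AT/AC sum was above that of the introns beside them in every library. For GC/AG this rested on the uncertain Eef1a1 junction, since without it, an alternative chosen after seeing the data, the ratio was 0.926 to 0.958 over the 9 libraries. The median over single junctions was 1.0 for GC/AG, 1.05 for AT/AC and 1.0 for GT/AG.

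The GC/AG ratio of YAP exceeded that of WT by 0.080 on the log2 scale (exact permutation p = 0.1, no overlap), and that of YAP_Lsd1ko exceeded WT by 0.053 (p = 0.1, no overlap). Eef1a1, whose neighbouring introns have few uniquely mapped reads, had a ratio of 91.2. Without Eef1a1 these differences were 0.017 and 0.013 (exact permutation p = 0.3 for both) with overlapping groups, and without the 5 most read members 0.033 and 0.001. For AT/AC the differences were 0.015, 0.015 and 0.030 in YAP against WT, YAP_Lsd1ko against YAP and YAP_Lsd1ko against WT, with exact permutation p-values of 0.4, 0.8 and 0.4 and overlapping groups. The AT/AC introns with the lowest single ratios were those of Arpc5l (41 reads, ratio 0.195) and Arl16 (35 reads, ratio 0.292), both first introns.

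Single junctions were tested with edgeR in 1 fit of all 75734 annotated junctions that had enough reads, which included 552 of 906 GC/AG and 81 of 123 AT/AC members. Between YAP and WT, 27 GC/AG members rose and 37 fell (11.6% of those tested), while 5.06% of all junctions rose and 6.81% fell. Of the AT/AC members 1 rose and 1 fell (2.47%). At an unadjusted p under 0.05 there were 147 of 552 GC/AG and 6 of 81 AT/AC members, beside 19587 of all 75734 junctions (edgeR). The GC/AG count was thus close to the background of all junctions, and the median log2 fold change was 0.023 for GC/AG, 0.012 for AT/AC and 0.017 for all junctions. The GC/AG count was 1 without replicate 3 of every group, 38 without WT replicate 3, 39 without YAP replicate 1 and 32 without YAP replicate 3. It was 101 when the library labelled YAP_Lsd1ko replicate 2 was left out. Scaled by library size alone, 42 GC/AG members rose and 24 fell, and the median log2 fold change was 0.230 for GC/AG and 0.203 for AT/AC. That scaling leaves in the difference of 0.20 between the log2 TMM factors of these groups, which TMM scaling takes off every junction. In this and the other alternatives only members were counted, so no share over all junctions stands beside the counts. The AT/AC count was 0 without replicate 3 of every group, 1 without WT replicate 3, and 4 without YAP_Lsd1ko replicate 1 or the library labelled YAP_Lsd1ko replicate 2.

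The AT/AC junction that fell was intron 17 of Rapgef4, which encodes Epac2, an exchange factor for Rap that cAMP activates. Its reads were 193, 168 and 234 in the WT libraries, 75, 99 and 108 in the YAP libraries and 64, 84 and 115 in the YAP_Lsd1ko libraries, or 29.1, 24.3 and 30.0 CPM, 8.85, 11.5 and 12.8 CPM, and 7.60, 12.9 and 11.9 CPM. All 6 libraries with the transgene lay below all WT libraries, the library labelled YAP_Lsd1ko replicate 2 among them. The log2 fold change was -1.33 in YAP against WT (SE 0.23, edgeR adjusted p = 0.000970) and -1.37 in YAP_Lsd1ko against WT (SE 0.23, adjusted p = 0.00514). Against the other junctions of Rapgef4 it moved by 0.01 and 0.11, and the summed junctions of the gene fell too in YAP against WT. Without replicate 3 of every group the adjusted p-values were 0.123 and 0.694, and without WT replicate 3 the second was 0.0535.

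The AT/AC junction that rose was intron 4 of Rasgrp3 (chr17:75494250-75496381), an exchange factor for Ras and Rap that binds diacylglycerol. It had 0.906, 1.30 and 0.770 CPM in WT, 3.54, 2.44 and 3.20 CPM in YAP and 2.02, 0.765 and 1.97 CPM in YAP_Lsd1ko. The YAP libraries were above all others, and the library labelled YAP_Lsd1ko replicate 2 was the lowest of the 9. The log2 fold change of YAP against WT was 1.62 (SE 0.39, adjusted p = 0.0113, and 0.0677 without WT replicate 3), from 5 to 30 reads per library. Rapgef4 and Rasgrp3 belong to 1 family of exchange factors and moved in opposite directions.

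Intron 3 of Hsbp1l1, a relative of Hsbp1 on chromosome 18, rose in YAP_Lsd1ko against WT. Its levels were 1.36, 3.32 and 1.54 CPM in WT, 3.19, 1.51 and 3.44 CPM in YAP and 6.65, 5.66 and 5.29 CPM in YAP_Lsd1ko. All YAP_Lsd1ko libraries lay above the other 6, including the library labelled YAP_Lsd1ko replicate 2, while WT and YAP overlapped. The log2 fold change was 1.5 against WT (SE 0.34, edgeR adjusted p = 0.0374) and 1.11 against YAP (SE 0.32, adjusted p = 0.0976). The first call was lost in 8 of 15 alternatives, with adjusted p-values up to 0.884.

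**Figure D2:**
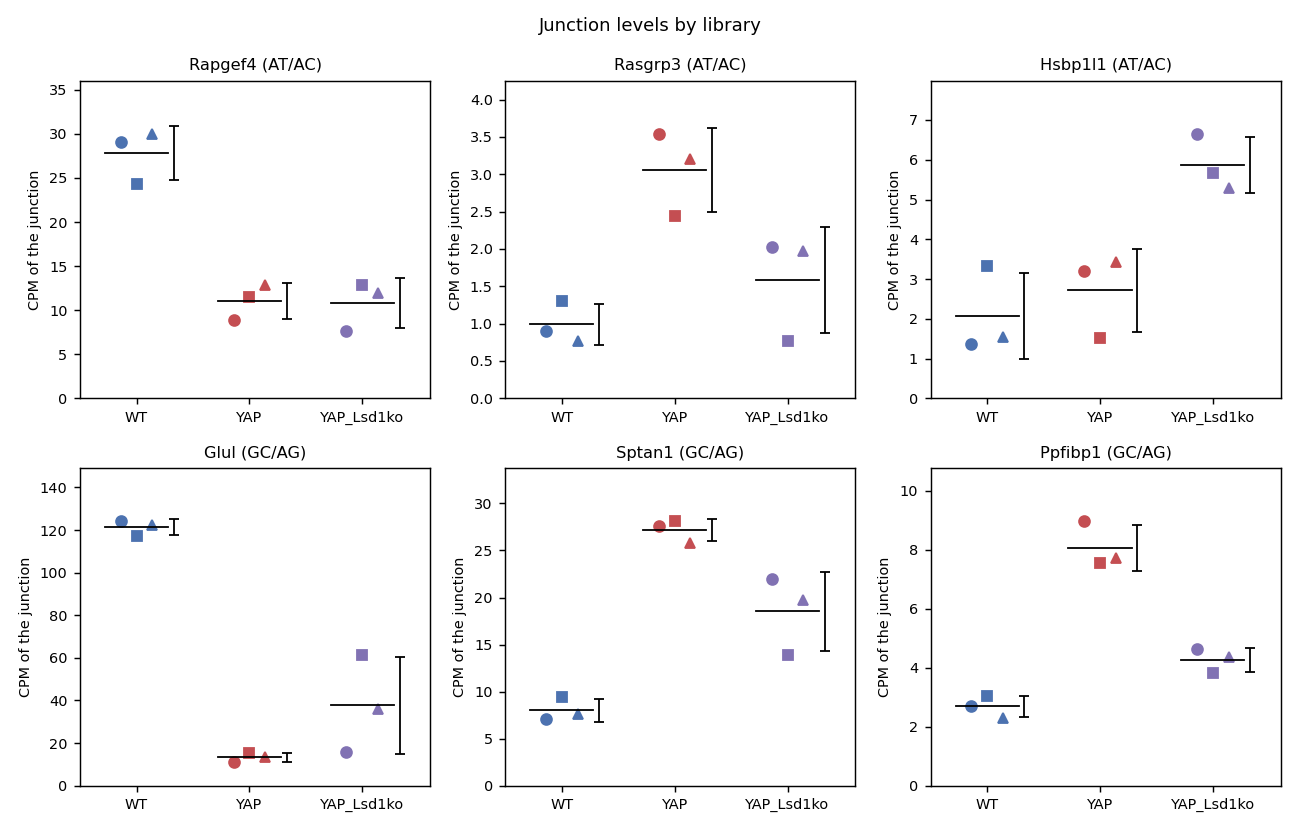
CPM of 3 AT/AC and 3 GC/AG junctions in each library (circle, square and triangle for replicates 1, 2 and 3), with group means as horizontal lines and 1 SD as whiskers, n = 3. Rapgef4 and Glul are highest in WT, Rasgrp3, Sptan1 and Ppfibp1 in YAP, and Hsbp1l1 in YAP_Lsd1ko.

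Among GC/AG junctions that fell in YAP against WT, the deepest falls were in Slco1a1 and Glul. Intron 3 of Glul (chr1:153904699-153906348), glutamine synthetase of the hepatocytes around the central vein, had 124.1, 117.0 and 122.6 CPM in WT, 10.9, 15.3 and 13.5 CPM in YAP and 15.7, 61.5 and 35.8 CPM in YAP_Lsd1ko. The groups did not overlap between WT and YAP (log2 fold change -3.19, SE 0.39, adjusted p = 0.000223), and within YAP_Lsd1ko the library labelled replicate 2 was nearest to WT. Intron 7 of the anion transporter gene Slco1a1 (chr6:141924501-141925528) had a log2 fold change of -3.67 (edgeR, SE 0.69, adjusted p = 0.0118, and 0.0505 without YAP replicate 3), from 142.4, 29.3 and 72.6 CPM to 8.26, 4.53 and 6.41 CPM. WT replicate 1 was far above the other WT libraries, and the log2 fold change was -3.0 without it and -4.08 without WT replicate 2.

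Other falls were in Cyp2u1 (log2 fold change -2.47), the kinase gene Stk38l (-2.02), Haao of tryptophan breakdown (-1.89), Fam214a (-1.82), the histidine ammonia-lyase gene Hal (-1.66), Reln (-1.64), the bile salt export pump gene Abcb11 (-1.63) and the peroxisomal reductase gene Pecr (-1.58). Hal, Haao, Pecr and Abcb11 each had every YAP library below every WT library. Reln is a stellate cell gene in liver, and 1 of 5 stellate markers, Reln itself, fell in the gene counts of YAP against WT, where 10% of all genes fell. Without Reln the stellate list summed to 265.5, 581.8 and 457.7 CPM in the WT libraries and 171.7, 372.1 and 289.9 CPM in the YAP libraries, which overlap. Cyp2u1 passed in all 15 alternatives, with an adjusted p of at most 0.0435. The call of Stk38l was lost without WT replicate 3 or YAP replicate 3, and without replicate 3 of every group its log2 fold change was -1.26.

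Among GC/AG junctions that rose, intron 1 of the keratin gene Krt4 (chr15:101922976-101924181) had 0 reads in each WT library, 12, 23 and 12 in YAP and 11, 5 and 1 in YAP_Lsd1ko. Against a floor of 3 reads over the WT group it was at least 13.1-fold higher in YAP. The read filter kept it by way of YAP, the group where it is high, so its pass is not separate support for a rise. Intron 21 of Sptan1 (chr2:29999261-29999913), an actin-binding spectrin, had the smallest adjusted p of the class. It stood at 7.10, 9.39 and 7.57 CPM in WT, 27.6, 28.1 and 25.8 CPM in YAP and 22.0, 13.9 and 19.7 CPM in YAP_Lsd1ko, so that the 3 groups did not overlap. Its log2 fold change was 1.76 in YAP against WT (SE 0.22, adjusted p = 7.79e-05) and 1.21 in YAP_Lsd1ko against WT (SE 0.22, adjusted p = 0.00940).

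The largest other rises were in Plce1 (2.80), a phospholipase C gene, the cytolinker gene Dst (2.70), Ect2 (2.36), which acts in cytokinesis, the myosin gene Myh14 (2.25), Pla2g7 (2.24), the phosphodiesterase gene Pde7a (2.21), the endocytic adaptor gene Dab2 (2.04), the kinase gene Sik1 (2.02) and Acot9 (1.92), all as log2 fold changes. These junctions had 100 to 348 reads over the 9 libraries, and the calls of Ect2 and Sik1 were lost without WT replicate 3 or YAP replicate 1. The sizes of the first 3 moved with single libraries: Plce1 was at 3.45 without WT replicate 1, Dst at 3.81 and Ect2 at 3.21 without WT replicate 2. Over all 15 alternatives they ranged from 2.39 to 3.45, 2.17 to 3.81 and 1.96 to 3.21. Pla2g7, which macrophages express, had 0.604, 2.74 and 2.18 CPM in WT, 7.67, 9.87 and 9.14 CPM in YAP and 3.45, 1.53 and 1.56 CPM in YAP_Lsd1ko. The YAP libraries stood apart from both other groups. In the same comparison 4 of 6 Kupffer cell and macrophage markers, 2 of 3 neutrophil markers, 1 of 4 tested biliary markers, 1 of 2 tested lymphocyte markers and 1 of 5 endothelial markers rose, where 7.42% of all genes rose, and their part in these junction changes was not tested.

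**Figure D3:**
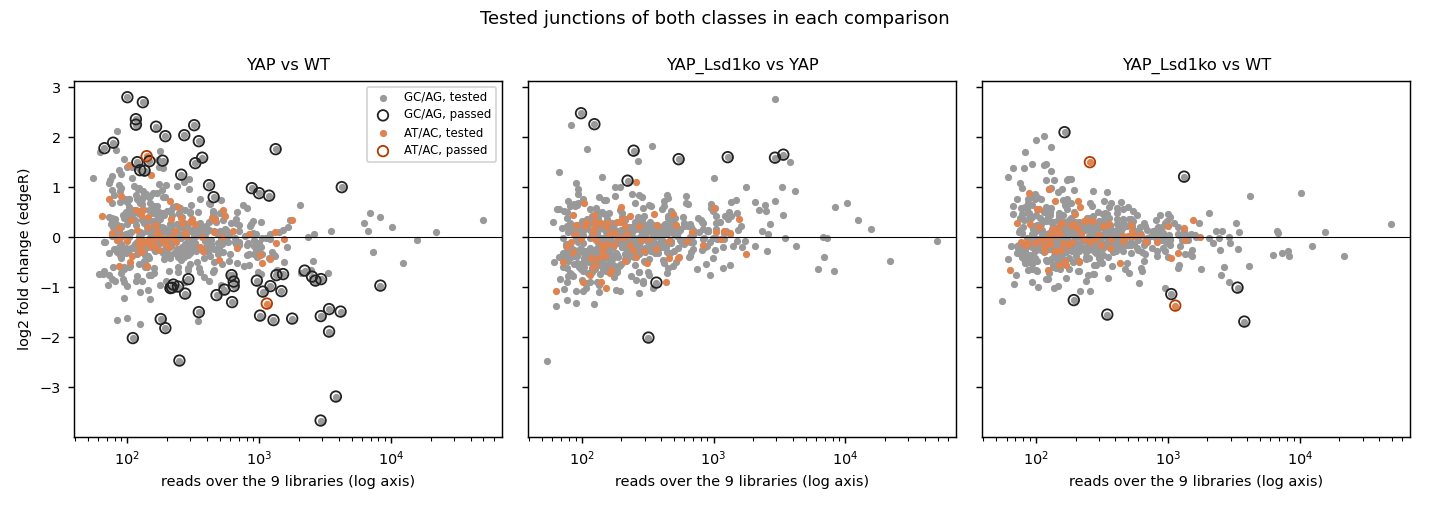
edgeR log2 fold change of each tested member against its reads over the 9 libraries (log axis) in the 3 comparisons, GC/AG in grey and AT/AC in orange, with open rings on junctions that passed an adjusted p of 0.05; Krt4, with 0 reads in WT, is left out of both comparisons with WT. Between YAP and WT 63 of the 64 passing GC/AG members are drawn, on both sides of 0, and 2 AT/AC members passed there.

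The host genes had the sign of their junctions. This is partly fixed in advance, because the sum of a gene includes the reads of the junction itself, and GT/AG junctions were not counted in this way. Of the 64 GC/AG members that passed between YAP and WT, all 64 had a host gene with the same sign in the gene fit, and in 51 the host gene passed too. Junction usage, each junction against the other junctions of its gene, was tested with diffSpliceDGE of edgeR for 540 GC/AG and 77 AT/AC members among 73788 junctions. Between YAP and WT 1 GC/AG and 0 AT/AC members passed, while 0.0420% of all junctions did. At an unadjusted p under 0.05 there were 6 GC/AG and 0 AT/AC members, beside 1005 of all 73788 junctions. The smallest p among AT/AC junctions belonged to Gmfb (usage log2 change -0.56), Spc24 (0.59) and Vps52 (0.68), each with an adjusted p of 1. With limma voom and diffSplice no member of either class passed.

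The junction that passed in usage was the GC/AG intron of Yap1 itself, intron 8 of 8 (chr9:7934733-7936514). It had 16, 9 and 17 reads in WT, 16, 16 and 9 in the YAP libraries and 25, 16 and 10 in YAP_Lsd1ko, with no change in level (log2 fold change -0.29 in YAP against WT, SE 0.42, adjusted p = 0.719). The other Yap1 junctions together had 106, 120 and 112 reads in WT, 624, 558 and 639 in the YAP libraries and 377, 197 and 272 in YAP_Lsd1ko. The GC/AG intron thus took 13.1, 6.98 and 13.2% of Yap1 junction reads in WT, 2.50, 2.79 and 1.39% in the YAP libraries and 6.22, 7.51 and 3.55% in YAP_Lsd1ko. Every YAP library was below every other library (usage log2 change -2.32, edgeR adjusted p = 0.0138). The call was lost without WT replicate 1 or 3, without any 1 YAP replicate and without replicate 3 of every group. Most of the added Yap1 reads in YAP lay on introns 1, 2 and 4. Intron 1 had 2, 10 and 7 reads in WT and 207, 214 and 227 in YAP, while introns 6 and 7, near the GC/AG intron, had 5 to 29 reads in every WT and YAP library. The pattern was not an even gradient along the gene. Intron 3 had 17, 21 and 12 reads in WT and 10, 16 and 24 in YAP, and intron 5 had 6, 16 and 14 in WT and 31, 25 and 33 in YAP. Which parts of Yap1 the transgene holds was not analysed here.

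**Figure D4:**
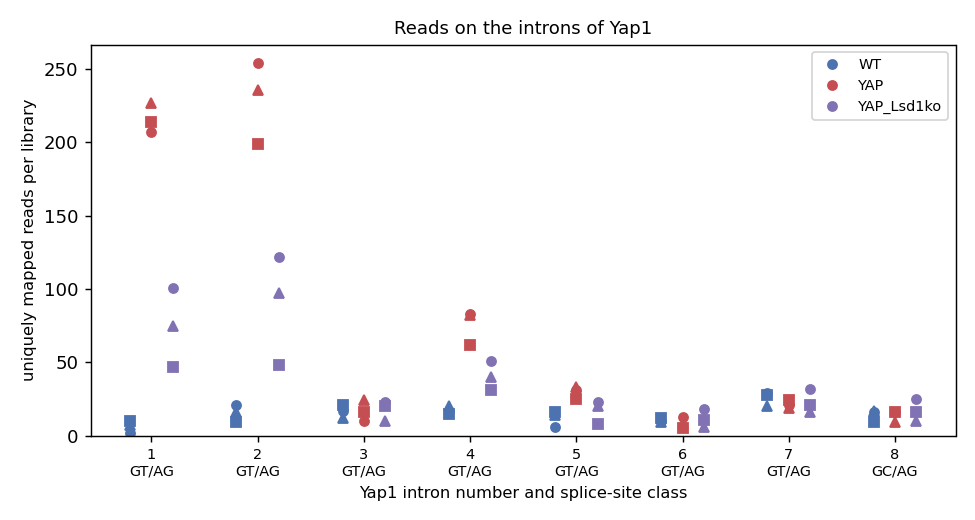
Uniquely mapped reads per library on the introns of the Yap1 transcript with 8 introns, numbered from the start of the gene, in WT (blue), YAP (red) and YAP_Lsd1ko (purple), with circle, square and triangle for replicates 1, 2 and 3. The GC/AG intron, number 8, has 9 to 25 reads in every library, while introns 1 and 2 reach 199 to 254 reads in YAP.

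Between YAP_Lsd1ko and YAP, 8 GC/AG members rose and 2 fell, where 1.31% of all junctions rose and 0.277% fell. Acacb, the mitochondrial acetyl-CoA carboxylase gene, rose at intron 22 (log2 fold change 2.48) and intron 12 (2.26), followed by Cyp2u1 (1.73), Haao (1.65), Hal (1.60), Pecr (1.59), the endoplasmic reticulum oxidase gene Ero1lb (1.56) and Rab4a of endosomes (1.13). Pla2g7 (-2.01) and Ppfibp1 (-0.91) fell. Intron 5 of Ero1lb (chr13:12581752-12583536) stood at 7.70, 6.64 and 9.49 CPM in WT, 2.95, 4.41 and 4.15 CPM in YAP and 8.91, 14.7 and 10.8 CPM in YAP_Lsd1ko. Its YAP libraries were below all others (SE 0.24, edgeR adjusted p = 0.00444), and its call was lost only without replicate 3 of every group. The other 9 calls were lost in 4 to 11 of 15 alternatives each.

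Haao, Hal, Pecr and Acacb were highest within YAP_Lsd1ko in the library labelled replicate 2, at 89.1, 27.9 and 70.4 CPM for the first 3 and at 4.28 and 5.36 CPM for the introns of Acacb. Intron 5 of Ppfibp1 (chr6:146990601-146992401), a liprin gene, had 2.72, 3.03 and 2.31 CPM in WT, 8.97, 7.55 and 7.71 in the YAP libraries and 4.63, 3.83 and 4.36 in YAP_Lsd1ko, with no overlap between groups. The GC/AG count of 10 became 0 without replicate 3 of every group, 6 without WT replicate 3, 2, 3 and 1 without YAP replicates 1, 2 and 3, and 33, 4 and 3 without YAP_Lsd1ko replicates 1, 2 and 3. DESeq2 called 17, of which 7 were shared, and the fit with a replicate block called 3.

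Of the AT/AC members 0 passed between YAP_Lsd1ko and YAP with edgeR and with DESeq2. At an unadjusted p under 0.05 there were 8 of 81, beside 10735 of all 75734 junctions. Without WT replicate 2 the count of passing AT/AC members was 1, and without YAP_Lsd1ko replicate 1 it was 2. The smallest were Hsbp1l1 (log2 fold change 1.11, adjusted p = 0.0976), Tcea3 (-0.89), Rasgrp3 (-0.89), Mcmbp (-0.52) and Dcp2 (-0.75). The median log2 fold change was -0.022 for GC/AG, -0.027 for AT/AC and -0.015 for all junctions. In usage 0 members passed with edgeR and with limma, beside 0.00407% of all junctions. At an unadjusted p under 0.05 there were 3 GC/AG and 0 AT/AC members, beside 668 of all 73788 junctions. The GC/AG intron of Yap1 was among the first by p here too (usage log2 change 1.39), with Krit1 (-0.93) and Herc1 (-1.02). Of the 10 GC/AG members that passed in level, all had a host gene with the same sign, whose sum again included the member's reads. In 7 the host gene passed, where 1.75% of all genes rose and 0.367% fell.

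Between YAP_Lsd1ko and WT, 2 GC/AG members rose (Pde7a and Sptan1) and 5 fell (Glul, Aox1, Fam214a, Por and Hc), where 0.669% of all junctions rose and 0.733% fell. Scaled by library size alone, which leaves in the difference of 0.12 that TMM scaling takes off every junction, 4 GC/AG members rose and 2 fell. Hsbp1l1 rose and Rapgef4 fell among AT/AC members. At an unadjusted p under 0.05 there were 61 of 552 GC/AG and 3 of 81 AT/AC members, beside 9256 of all 75734 junctions (edgeR). Intron 34 of Hc (chr2:34991271-34991599), which encodes complement C5, had the tightest libraries, at 75.9, 80.9 and 79.0 CPM in WT, 29.7, 28.1 and 28.8 CPM in YAP and 39.9, 38.1 and 39.3 CPM in YAP_Lsd1ko. The 3 groups did not overlap, and the log2 fold change against WT was -1.44 in YAP (SE 0.19, edgeR adjusted p = 0.000162) and -1.01 in YAP_Lsd1ko (SE 0.19, adjusted p = 0.0137). Aox1, an aldehyde oxidase gene, and Por, the reductase that serves the P450 enzymes, fell by 1.55 and 1.14 on the log2 scale. The 7 calls were each lost in 4 to 10 of 15 alternatives.

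The 7 GC/AG calls became 0 without replicate 3 of every group, 4 and 0 without WT replicates 2 and 3, 3 without YAP replicate 3, and 4, 15 and 0 without YAP_Lsd1ko replicates 1, 2 and 3. The 2 AT/AC calls became 0 without WT replicate 3 or without replicate 3 of every group, and 1 without WT replicate 1, YAP replicate 1 or 3 or YAP_Lsd1ko replicate 1 or 3. In usage 0 members of either class passed with edgeR and with limma, beside 0.00542% of all junctions. At an unadjusted p under 0.05 there were 11 GC/AG and 1 AT/AC members, beside 1011 of all 73788 junctions. All 7 GC/AG members had a host gene of the same sign, whose sum again included the member's reads. In 2 of them the host gene passed, where 1.12% of all genes rose and 0.927% fell. The differences between the comparisons were not tested, and each group serves in a pair of comparisons.

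Few genes of the factors that read these sites passed a test, but the lists are short. Among all genes 7.42% rose and 10% fell between YAP and WT, with smaller shares in the other comparisons. Low counts in such short lists therefore do not set them apart from all genes. The share of all genes at an unadjusted p under 0.05 is not given here. Of 14 genes of the minor spliceosome 13 had reads and 11 were tested, and none rose or fell in any of the 3 comparisons with edgeR on the summed junction reads of each gene. At an unadjusted p under 0.05 there were 2 between YAP and WT and 0 in the other comparisons. Their median log2 fold change was -0.01 in YAP against WT, 0.05 in YAP_Lsd1ko against YAP and -0.17 in YAP_Lsd1ko against WT, beside 0.00, -0.01 and -0.00 for all genes. The summed list stood at 125.6 to 138.7 CPM in WT, 123.3 to 135.9 CPM in YAP and 116.4 to 131.2 CPM in YAP_Lsd1ko, with overlap between all groups. The most read were Rnpc3, whose protein joins the U11 and U12 particles (33.3, 41.1 and 34.8 CPM as group means), Snrnp48 (26.4, 26.0 and 22.9 CPM) and Zcrb1 (23.8, 22.5 and 26.0 CPM). Cenatac stood at 9.84 CPM in WT and 5.95 CPM in YAP (log2 fold change -0.72, adjusted p = 0.0691). Snrnp48 itself holds a GC/AG intron, intron 6 of 8 (chr13:38217496-38220687), with 15, 21 and 19 reads in WT, 32, 27 and 31 in the YAP libraries and 22, 15 and 37 in YAP_Lsd1ko, which did not pass (log2 fold change 0.45 in YAP against WT, adjusted p = 0.333).

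Of 16 genes of donor recognition and of the U1 and U5 particles, 0 rose and 1 fell between YAP and WT (edgeR). Among all genes 7.42% rose and 10% fell there. None of the 16 passed in the other comparisons, and 3, 2 and 1 had an unadjusted p under 0.05 (edgeR) in the 3 comparisons. The gene that fell was Prpf6 of the U5 particle, from 126.6 to 73.7 CPM (log2 fold change -0.78, SE 0.13, edgeR adjusted p = 0.00474). Its libraries did not overlap between WT (115.6 to 141.0 CPM) and YAP (70.3 to 76.9 CPM). The median of the list was 0.09, -0.12 and 0.04 in the 3 comparisons in the order above. Prpf8 and Snrnp200, of the same particle, each hold a GC/AG intron, with 560 and 314 reads, and Sf3b1 of the U2 particle holds one with 1024 reads. AT/AC introns lay in Hnrnpl, Srsf10 and Crnkl1, which also act in splicing.

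A GC donor can share its acceptor with a GT donor, and the reads then show which donor was joined to it. Whether the donors of a pair belong to the same exon was not tested. The percentages therefore do not tell a choice of donor within an exon from a choice between exons, above all where donors lie far apart. Of the 906 GC/AG members 65 had such a GT/AG partner with 10 or more reads, and of the 123 AT/AC members 0 had one. In 34 of the 65 the GC donor had more reads than its GT partners and in 31 fewer. The donors were less than 100 bases apart in 22 pairs, and in 13 of these the distance was a multiple of 3, which keeps the reading frame in coding exons. There were 14 pairs with 100 or more reads on both sides. Of the pairs named next, Sqstm1, Ifi27, Chpt1 and Fetub had the most reads on their less read side, and U2af2 was named for the role of its gene, all after values were seen.

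In Sqstm1, an autophagy receptor gene (chr11:50200948-50202398), the GC donor lies 114 bases from its GT partner and took 63.0, 72.9 and 71.2% of the reads in WT, 70.5, 71.5 and 76.0% in the YAP libraries and 72.7, 67.4 and 71.6% in YAP_Lsd1ko. The 3 groups overlapped. In Ifi27, an interferon-induced gene (chr12:103437525-103437675), the donors lie 842 bases apart. Its GC donor took 45.9, 55.1 and 50.7% in WT, then 67.9, 49.3 and 55.6% in YAP, and 40.3, 29.3 and 36.1% under YAP_Lsd1ko. Every YAP_Lsd1ko library was below all others, at 35.2% ± 5.53 against 50.6% ± 4.60 in WT and 57.6% ± 9.45 in YAP (SD, n = 3, exact permutation p = 0.1 for both).

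In Chpt1 of phosphatidylcholine synthesis (chr10:88472985-88475332), the GC donor took 33.7, 36.4 and 30.1% in the WT libraries, 40.7, 39.2 and 39.8% in the YAP libraries and 36.0, 34.9 and 32.5% in the YAP_Lsd1ko libraries, the 3 YAP libraries above all others. In Fetub, a secreted cystatin-like protein gene, it took 87.1, 81.4 and 87.3% in WT, then 92.8, 93.6 and 90.7% in YAP, and 86.5, 80.9 and 81.1% under YAP_Lsd1ko, again with the 3 YAP libraries highest. Here the donors lie 8814 bases apart. For both genes the exact permutation p was 0.1 for YAP against WT and for YAP_Lsd1ko against YAP, the smallest that 3 against 3 libraries allow, and no adjustment over the 65 pairs could be passed at that floor. U2af2, which encodes the large U2AF subunit that binds acceptor sites, had its donors 12 bases apart and took 30.8, 50 and 45.5% in the WT libraries, 41.9, 45.7 and 44.4% in the YAP libraries and 53.3, 50 and 61.3% in the YAP_Lsd1ko libraries, with YAP_Lsd1ko above YAP in all libraries and touching WT. These percentages rest on 22 to 35 reads per library.

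**Figure D5:**
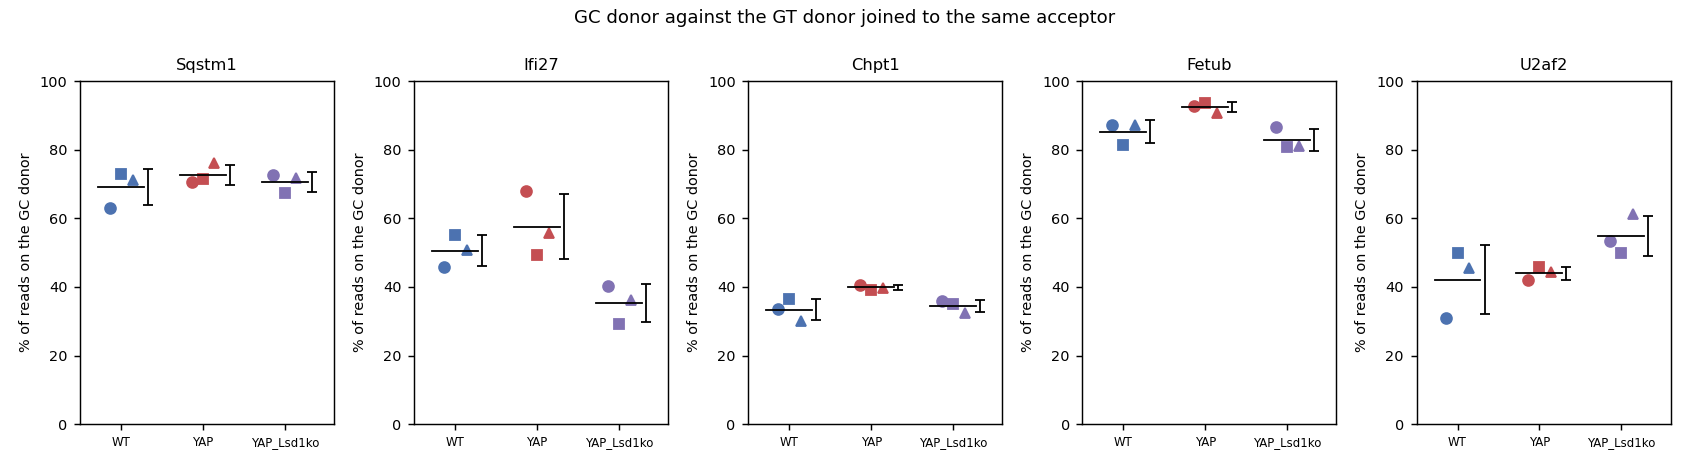
Percentage of reads on the GC donor among reads of the GC donor and the GT donors that join the same acceptor, in each library (circle, square and triangle for replicates 1, 2 and 3), with group means as horizontal lines and 1 SD as whiskers, n = 3. Ifi27 is lowest in YAP_Lsd1ko, Chpt1 and Fetub are highest in YAP, and the groups overlap in Sqstm1.

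Sites could also differ at the acceptor. In Nr2c2ap 1 AT/AC donor joined acceptors 2 bases apart, at chr8:70132655-70133096 with 68 reads and at chr8:70132655-70133098 with 30 reads. The nearer acceptor had 5, 5 and 7 reads in WT, 12, 9 and 12 in the YAP libraries and 6, 7 and 5 in YAP_Lsd1ko, and the farther one 0, 2 and 7, then 6, 1 and 3, then 2, 2 and 7. Its donor, tgcccttcagATATCCTGcctg, holds ATATCC, and both acceptors were read in 8 of the 9 libraries. Outside the annotation, 27 GC/AG and 2 AT/AC junctions had 10 or more reads and are not members.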

How the data were processed

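RNA of 9 liver libraries was sequenced with ribosomal RNA depleted and strand kept, per the labels' protocols. The deposited files give, per library, the read count across each junction, split into uniquely mapped and multi-mapped, as the authors' STAR alignment wrote them. STAR, bcl2fastq, FastQC, featureCounts, edgeR and the build mm10 are named in the submitters' processing notes, and which annotation STAR used is not stated in those sources. Uniquely mapped counts were used unless stated, 6910297 to 9925154 per library.

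Annotated junctions were matched to GENCODE M21 introns (GRCm38) by position and strand (900 of 906 GC/AG and 114 of 123 AT/AC members), and intron bases were read from transcripts whose exons run through them. Counts of all annotated junctions were filtered with filterByExpr (75734 kept), scaled by TMM and tested with the quasi-likelihood test of edgeR 4.0.16 in 1 fit of the 3 groups, with Benjamini-Hochberg adjustment over all junctions and a threshold of 0.05. The standard error is the log2 fold change divided by the root of F. Usage was tested with diffSpliceDGE, and genes on their summed junction counts. Shares, neighbour ratios and donor percentages were compared by exact permutation over libraries. Alternatives used RLE, library size alone, no filter, DESeq2 1.42.0, limma 3.58.1, a replicate block, multi-mapped reads and each library left out. The software was R 4.3.3 with Python 3.11.15 (pandas 2.3.3, numpy 2.4.6, matplotlib 3.10.9). The fit was tested on simulated data, where the share of false calls among all calls was above the threshold of 0.05. Named junctions were the most read 12 of each class, up to 10 passing in each direction by size of change, and those with the smallest p where few or none passed. The members and gene lists were chosen with earlier results of these data known. Some junctions that the naming rule covers are not reported here.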

Additional observations from a re-analysis of the deposited data

How the results depend on the processing

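Leaving out 1 library at a time moved the number of passing members from 64 to between 32 and 101 (GC/AG) and from 2 to between 1 and 4 (AT/AC) in YAP against WT, from 10 to between 1 and 33 and from 0 to between 0 and 2 in YAP_Lsd1ko against YAP, and from 7 to between 0 and 15 and from 2 to between 0 and 2 in YAP_Lsd1ko against WT. Usage calls between YAP and WT went from 1 to between 0 and 1. Without replicate 3 of every group, an alternative chosen after seeing the data, the GC/AG counts were 1, 0 and 0, the AT/AC counts 0, 0 and 0, and the usage count 0. With a replicate block the GC/AG counts were 46, 3 and 1 and the AT/AC counts 2, 0 and 1. DESeq2 gave 53, 17 and 8 GC/AG calls, and limma 0 usage calls. Only members were counted in these alternatives, so no share over all junctions stands beside the counts. Deviations from the group means had r from -0.436 to 0.2 between same-numbered libraries of different groups. Between differently numbered ones r ran from -0.173 to 0.46. With 3 libraries per group and replicate 3 near the mean of the others, these values cannot decide whether the numbers pair the libraries.

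The GC/AG share difference of YAP_Lsd1ko against YAP, -0.021, turned to 0.004 without the 5 most read members and to 0.002 without Eef1a1, an alternative chosen after seeing the data, and ranged from -0.049 to 0.006 with 1 library left out (0.006 without YAP_Lsd1ko replicate 1). The AT/AC neighbour ratio turned to -0.001 in YAP against WT without the 5 most read members, and in YAP_Lsd1ko against YAP it ranged from -0.008 (without YAP_Lsd1ko replicate 2) to 0.027. The cause of these changes was not tested, beyond the smaller number of libraries. No named junction that passed changed direction in any alternative run. Many members had too few reads to be tested (396 of 1029).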

Other observations

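Junctions that share a donor were few. In Dnm2, a dynamin gene of endocytosis, 1 GC donor joined acceptors at chr9:21478349-21478898 (106 reads) and chr9:21478349-21480406 (54 reads). In Sept8, a septin gene, a GC/AG pair had 47 and 24 reads, of which WT held 4 and 2. In Ankzf1 the pair had 73 and 15 reads. The summed AT/AC junctions of the 6 E2F genes had 43, 53 and 44 reads in the WT libraries, 75, 65 and 52 in the YAP libraries and 61, 40 and 64 in the YAP_Lsd1ko libraries.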
